A study of Mus with 4 samples.

Results

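The nonfibrillar collagens outside type IV were taken as 10 genes, Col6a1, Col6a2, Col6a3, Col7a1, Col8a1, Col12a1, Col14a1, Col15a1, Col16a1 and Col18a1, and every probe with one of these symbols in the deposited table was used. They are 10 of the 26893 genes named on the array and are read by 20 of its 56605 probes. The cells were an immortalized murine podocyte cell line that had been differentiated at 37°C without interferon-γ for 10 to 14 days. The control group, Venus, had received a lentivirus that expresses the fluorescent protein Venus. In the OASIS group the lentivirus expressed the transcription factor OASIS, encoded by Creb3l1, in its active form. Both vectors were given for 24 h at a multiplicity of infection of 200 to 500, with 8 µg/mL polybrene and 10% FBS, and total RNA was taken 48 h after the vectors were added. Each group has 2 samples, each hybridised to its own 1-colour Agilent array. It is not stated whether the 2 samples of a group came from separate cultures, so that p-values measure the spread between these samples, which may be technical. No group without a vector was measured, and the cells are one line grown without the other cell types of the glomerulus.

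Fibrillar collagens build the cable-like fibrils of connective tissue, and type IV collagen builds the sheet of the basement membrane. The collagens described here do neither. They form fine filaments, anchoring fibrils or lattices, coat the surface of fibrils, or carry sugar chains in and beside basement membranes, and so join one matrix structure to another. OASIS is held in the membrane of the endoplasmic reticulum until its N-terminal part is released and enters the nucleus. It is known from bone formation, where type I collagen is among its targets. In the kidney, podocytes rest on a basement membrane of type IV collagen and laminin in which the type XVIII collagen is also found.

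Of the 20 probes, 11 were tested, for 8 of the 10 genes, and 10 of the 11 were well above background on all 4 arrays. The threshold was a fold over 2 or under 0.5 together with a limma adjusted p under 0.1. Col7a1, Col6a3 and 1 probe of Col12a1 passed it, all 3 higher with OASIS, where 5.89% of all 31598 tested probes were called higher. None was called lower, against 2.47% of all tested probes. For comparing 2 groups in general the study's methods name Student's t-test or the Mann-Whitney test, and their microarray section names no test. None was called lower with the methods' t-test either, against 175 of 31590 probes. At an unadjusted p under 0.05, 6 of the 11 were higher and 1 lower, that of Col8a1, against 18.3% and 22.4% of all tested probes. By the adjusted p alone, 5 probes were higher and 1 lower, against 17.0% and 19.7% of all tested probes. Both OASIS arrays lay above both Venus arrays for 7 of the 11 probes and below them for 2, against 28.6% and 39.4% of all tested probes, and the groups overlapped for the other 2. With each gene represented by its brightest probe, 3 of the 8 genes were higher and none lower, against 6.21% and 1.85% of 16318 genes. The log2 fold changes of the 11 probes ran from -0.62 to 2.13 with a median of 0.46, and the median over all tested probes was -0.069.

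**Figure D1:**
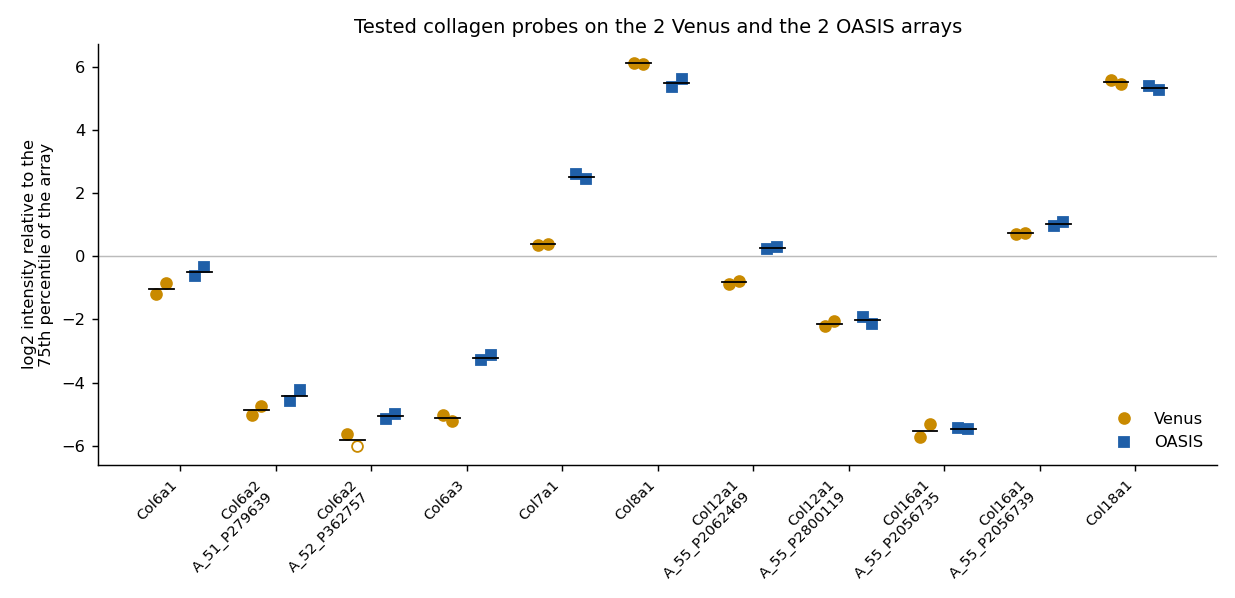
Log2 intensity relative to the 75th percentile of the array (vertical axis) for the 11 tested probes of the nonfibrillar collagens, with circles for the 2 Venus arrays, squares for the 2 OASIS arrays and bars for the group means. An open symbol marks an array on which the probe was not well above background. The groups are farthest apart for Col7a1 and Col6a3, while Col8a1 lies lower with OASIS, and levels of different probes are not comparable.

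In all that follows, a level is the log2 of a probe's intensity over the 75th percentile on that array, and a difference is the mean level with OASIS minus the mean level with Venus. A level below 0 therefore still can be well above background. A probe has its own brightness, and levels are compared between arrays, never between probes.

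Collagen VI forms beaded microfilaments in the matrix around cells, and its usual molecule is made of the chains encoded by Col6a1, Col6a2 and Col6a3. The α3 chain is the longest of these and bears a C-terminal end that is cut off outside the cell. Col6a3, in band 1qD, has 3 probes, of which the probe A_52_P479262 was well above background on all arrays. Its levels were -5.04 and -5.21 with Venus and -3.29 and -3.14 with OASIS. The nearest arrays of the groups were 1.75 apart, while arrays of the same group differed by 0.17 at most. Col6a3 was 3.76-fold higher with OASIS, a difference of 1.91 (standard error 0.12, limma adjusted p = 0.00386). The signal was weak, at intensities of 28.1 and 26.7 with Venus and 97.5 and 110.1 with OASIS. After normexp correction of the background the difference was 0.86, short of the 2-fold limit. The other 2 Col6a3 probes were not well above background on any array.

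Col6a1 and Col6a2 encode the partner chains and lie next to each other in band 10qC1. Col6a1 has 1 probe, with levels of -1.21 and -0.86 with Venus and -0.63 and -0.35 with OASIS. The groups did not overlap, and the difference of 0.54 (standard error 0.18, limma adjusted p = 0.0880) met the limit on the adjusted p but not that on the fold. Its adjusted p was over 0.1 under several settings, among them scaling to the median, no filter on dim probes and the methods' t-test. Without 1 array the difference lay between 0.37 and 0.72. The scanner marked the local background of this spot on each of the 4 arrays. Of the 3 Col6a2 probes, A_51_P279639 had levels of -5.02 and -4.75 with Venus and -4.60 and -4.24 with OASIS, a difference of 0.46 (standard error 0.18, limma adjusted p = 0.124). The probe A_52_P362757 had -5.64 and -6.00 with Venus, the second of them not well above background, and -5.15 and -4.99 with OASIS. It entered the comparison through its OASIS arrays, and its difference of 0.75 (limma adjusted p = 0.0368) was below the 2-fold limit and was 0.19 after normexp. The third Col6a2 probe was well above background on 1 OASIS array and was not tested.

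Collagen VII is the main component of anchoring fibrils, which tie the basement membrane of the skin and other stratified epithelia to the tissue under it, and loss of its gene COL7A1 causes dystrophic epidermolysis bullosa. Col7a1, in band 9qF2, is read by 1 probe. Its levels were 0.36 and 0.40 with Venus and 2.59 and 2.44 with OASIS, at intensities of 1191 and 1303 against 5761 and 5238. The OASIS arrays lay 2.04 above the Venus arrays at their nearest. Col7a1 was 4.38-fold higher with OASIS (95% interval 3.58 to 5.36), a difference of 2.13 (standard error 0.11, limma adjusted p = 0.00275), the largest among the tested probes of the 10 genes. It was past the threshold under each setting tried, at differences between 2.05 and 2.21.

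Collagen VIII is a short collagen that forms open lattices, as in Descemet's membrane of the cornea and in vessel walls. Col8a1, in band 16qC1.1, encodes its α1 chain and has 1 probe, with levels of 6.11 and 6.09 with Venus and 5.34 and 5.61 with OASIS. Its spot was not saturated on any array. The OASIS arrays were lower by 0.47 at their nearest, and the difference was -0.62 (standard error 0.13, limma adjusted p = 0.0357), or 0.65 of the Venus level. Col8a1 was the only tested gene among the 10 with an adjusted p under 0.1 and a lower level with OASIS, and its fold was inside the limit of 0.5. Its adjusted p was 0.178 without Venus replicate 1 and 0.162 without Venus replicate 2. Col8a2, which encodes the α2 chain, had a difference of 0.50 by its 1 tested probe, with levels of -6.35 and -5.41 with Venus and -5.72 and -5.04 with OASIS, so that its groups overlapped.

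Collagens XII, XIV and XVI belong to the fibril-associated collagens with interrupted triple helices, and collagens XII and XIV sit on the surface of type I fibrils. Col12a1, in band 9qE1, has 4 probes, of which 2 were tested and 1 passed the threshold. The probe A_55_P2062469 had levels of -0.87 and -0.78 with Venus and 0.24 and 0.28 with OASIS, with the groups 1.02 apart at their nearest arrays. It was 2.12-fold higher with OASIS, a difference of 1.09 (standard error 0.10, limma adjusted p = 0.00719). The probe A_55_P2800119, annotated to the same RefSeq transcript, had levels of -2.23 and -2.06 with Venus and -1.94 and -2.14 with OASIS. Here the groups overlapped, and the difference of 0.11 had a 95% interval of -0.23 to 0.45. The scanner marked the local background of the spot of A_55_P2062469 on both Venus arrays and on OASIS replicate 2, and with such spots left out this probe could not be tested. After normexp correction its difference was 0.95, short of the 2-fold limit. The other 2 Col12a1 probes, annotated to Ensembl transcripts, were not well above background on any array.

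Col16a1, in band 4qD2.2, had 2 tested probes. A_55_P2056739 had levels of 0.71 and 0.73 with Venus and 0.96 and 1.07 with OASIS, close within each group and not overlapping. Its difference was 0.29 (standard error 0.10, limma adjusted p = 0.106), with a 95% interval of 0.02 to 0.56. A_55_P2056735 had levels of -5.73 and -5.32 with Venus, which enclosed the -5.45 and -5.47 with OASIS. The third Col16a1 probe and the only Col14a1 probe were not well above background on any array, and neither was tested. The Col14a1 probe, in band 15qD1, read between -6.65 and -6.16 on the 4 arrays.

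Collagens XV and XVIII, the multiplexins, are found in basement membrane zones, carry glycosaminoglycan chains and release C-terminal fragments, that of collagen XVIII being endostatin. Col18a1, in band 10qC1 as are Col6a1 and Col6a2, was bright on all arrays, with levels of 5.57 and 5.44 with Venus and 5.39 and 5.26 with OASIS. The OASIS arrays lay 0.05 below the Venus arrays at their nearest. The difference of -0.18 (standard error 0.12, limma adjusted p = 0.30) had a 95% interval of -0.49 to 0.12, which leaves out a 2-fold change in either direction. Col15a1, in band 4qB1, has 2 probes, neither of them well above background on any array, with levels between -8.36 and -7.84.

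**Figure D2:**
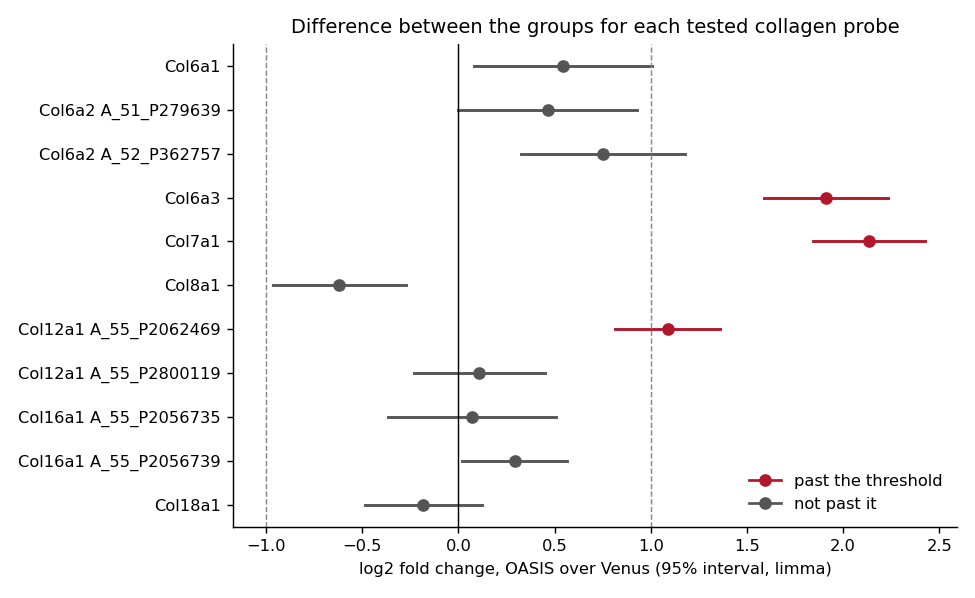
Log2 fold change, OASIS over Venus, of the 11 tested probes of the nonfibrillar collagens, with 95% intervals from limma and dashed lines at the 2-fold limits. Col7a1, Col6a3 and the Col12a1 probe A_55_P2062469 are past the threshold, and the other 8 points lie between -0.62 and 0.75.

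The Gene Ontology terms of the deposited table place all 10 genes in the collagen trimer, the collagen-containing extracellular matrix and the extracellular space. The term basement membrane is given to Col7a1, Col8a1, Col15a1 and Col18a1, and to 0.481% of the 21605 genes with terms. These 4 genes include the gene with the largest rise, the gene that was lower by adjusted p, one at a like level in both groups and one that was not tested. The KEGG pathway for interaction of the matrix with its receptors is given to Col6a1, Col6a2 and Col6a3 alone among the 10.

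The other collagens give a setting for these values. Among 17 further nonfibrillar collagen genes on the array, 8 were tested with 11 probes, 1 probe was higher, none lower, and the median difference was 0.00078. The gene called was Col20a1, another fibril-associated collagen, with levels of -2.11 and -2.47 with Venus and -0.91 and -1.32 with OASIS, a difference of 1.18 (standard error 0.20, limma adjusted p = 0.0223). It was short of the 2-fold limit after normexp, at 0.97, and without OASIS replicate 1, also at 0.97. Of 11 tested probes of the fibrillar collagens, 6 were higher and none lower, with a median difference of 1.10. Of 8 tested probes of the type IV chains, none passed the threshold in either direction with limma, with a median of -0.057. At an unadjusted p under 0.05, 2 of these 8 were lower and none higher. Each of these lists stands beside the 5.89% higher and 2.47% lower of all tested probes, and no test between the lists was made. With the methods' t-test none of the probes of the other nonfibrillar collagens or of type IV passed, and 4 of the fibrillar collagens did, all higher. That test called 551 of 31590 probes higher and 175 lower. At an unadjusted p under 0.05, 2 probes of the other nonfibrillar and 7 of the fibrillar collagens were higher, and 0 of either were lower, beside the 18.3% and 22.4% of all tested probes.

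The partners of these collagens were taken as matrix proteins that bind them, receptors and uptake proteins, and enzymes that process or degrade them. Among 32 tested probes of 17 matrix partner genes, 1 was lower and none higher with limma, against 2.47% and 5.89% of all tested probes. At an unadjusted p under 0.05, 5 were lower and 2 higher, against 22.4% and 18.3% of all tested probes. With the methods' t-test none passed, against 551 higher and 175 lower of 31590 probes. The lower one was a probe of Nid1, which links laminin and type IV collagen, with levels of -4.63 and -5.09 with Venus and -5.61 and -6.38 with OASIS, the last not well above background, and a difference of -1.14 (limma adjusted p = 0.0620). After normexp it was -0.30 and no longer past the threshold, nor was it past it without either Venus array, at -0.91 and -1.37, or without OASIS replicate 2, at -0.75. The brighter Nid1 probe had a difference of -0.48 (limma adjusted p = 0.143).

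Among 22 tested probes of 14 receptor and uptake genes, 5 were higher and none lower with limma, against 5.89% and 2.47% of all tested probes. Their median difference was 0.063. At an unadjusted p under 0.05, 8 were higher and 3 lower, against 18.3% and 22.4% of all tested probes. With the methods' t-test 1 was higher, against 551 of 31590 probes. Mrc2, an endocytic receptor that takes up collagen, had 2 probes higher with limma, neither of which was well above background on a Venus array. Its levels by the probe A_52_P424840 were -6.49 and -6.00 with Venus and -3.21 and -3.31 with OASIS, at least 6.93-fold higher, and by A_55_P2097038 it was at least 3.18-fold higher, a probe that did not pass after normexp. For such a bound, each Venus array was given either the probe's own level or the lowest level of any probe well above background there, whichever was higher. Such a bound holds for this scaling and background alone. Over the settings tried, the fitted differences of these 2 Mrc2 probes fell as low as 1.03 and 0.76, respectively. Cspg4, a proteoglycan of the cell surface that binds collagen VI, had 2 tested probes past the threshold by the fitted fold. The brighter had levels of -5.64 and -5.50 with Venus and -3.71 and -4.46 with OASIS, a difference of 1.48 (limma adjusted p = 0.0250), and of 0.60 after normexp, where it no longer passed. The other entered through its OASIS arrays, and its bound of at least 1.83-fold higher falls short of the 2-fold limit. Its fitted difference fell as low as 0.23 over the settings tried. Itga1, a chain of a collagen-binding integrin, was higher by 1 of its 3 tested probes, at 1.34 (limma adjusted p = 0.0211), with levels of -3.41 and -3.03 against -2.12 and -1.64, and at 0.89 after normexp. The 2 remaining Itga1 probes had differences of -0.08 and -0.06.

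Of 32 tested probes of 18 processing and breakdown genes, 7 were higher and none lower with limma, against 5.89% and 2.47% of all tested probes. Their median difference was 0.30. At an unadjusted p under 0.05, 15 were higher and 2 lower, against 18.3% and 22.4% of all tested probes. With the methods' t-test 3 were higher, against 551 of 31590 probes. Pcolce2, which enhances the removal of procollagen ends, had levels of -3.80 and -3.99 with Venus and -1.58 and -1.77 with OASIS, a difference of 2.22 (standard error 0.13, limma adjusted p = 0.00340). P4ha2, a catalytic chain of the enzyme that hydroxylates collagen prolines, had levels of 1.32 and 1.37 against 3.14 and 2.97, a difference of 1.71 (standard error 0.11, limma adjusted p = 0.00403). Its partner chain P4hb had differences of 1.09 and, by its brighter probe, 0.85, the latter below the 2-fold limit. The former was 0.59 after normexp and 0.79 without Venus replicate 2. Plod1, which hydroxylates collagen lysines, had a difference of 1.02 by its brighter probe (limma adjusted p = 0.00868), close to the 2-fold limit, and 0.97 after normexp. Its other probe entered through the OASIS arrays, with a bound of at least 1.91-fold higher, short of the limit. The fitted difference of that probe fell as low as 0.30 over the settings tried.

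**Figure D3:**
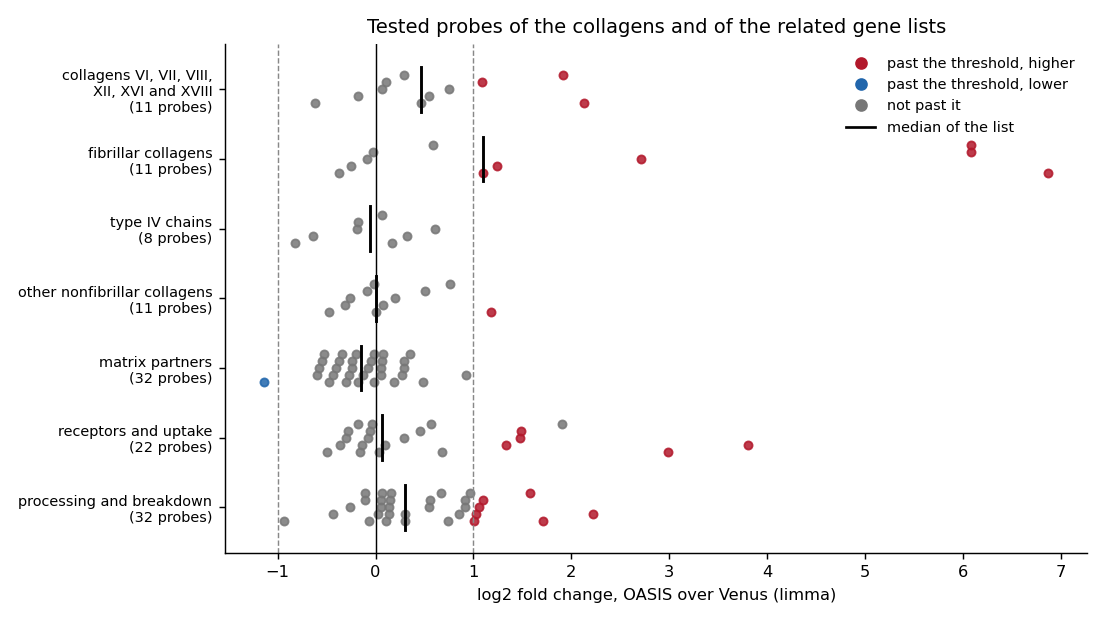
Log2 fold change, OASIS over Venus, of each tested probe of the nonfibrillar collagens and of 6 lists of related genes. Red points are past the threshold and higher, the blue point is past it and lower, and black bars are medians, 0.46 for the collagens described here and 1.10 for the fibrillar collagens. For probes not well above background on the Venus arrays the fitted value is no bound.

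The arrays lay on 1 slide read in 1 scan. Of 59305 spots that are not controls, between 33938 and 34418 were well above background on an array, none was saturated, and Pearson's r across probes was 0.995 or higher within a group and at most 0.978 between groups. Creb3l1 has 1 probe, with a difference of -0.17 (standard error 0.10, limma adjusted p = 0.298). Whether this probe can read the inserted N-terminal part was not analysed here, so that it does not check the labels. Among podocyte markers, Synpo, Podxl and Wt1 had a probe well above background on at least 1 array, while Ptpro and Tcf21 had none and Nphs1 was not tested. Markers of other cell types were summed for each type as linear intensity in units of the 75th percentile, so that the brightest probes weigh most. The 5 mesangial markers summed to 100.7 and 101.0 with Venus and to 82.6 and 84.1 with OASIS, and none of their probes passed the threshold. Most of that sum came from Acta2, whose brightest probe had a mean level of 6.13 with Venus and 5.86 with OASIS. Each marker had a probe well above background on at least 1 array, Itga8 on OASIS replicate 1 only. Of 4 fibroblast markers, Thy1 and Lum had no probe well above background, and the list summed to between 1.15 and 1.47 with Venus and 0.86 and 1.20 with OASIS. Pdgfra was at least 7.96-fold higher with OASIS by its brighter probe. Dcn, well above background on all arrays, went the other way, with levels of 0.17 and 0.53 with Venus and -0.54 and 0.08 with OASIS. Its difference of -0.58 (limma adjusted p = 0.166) was not past the threshold. Of 5 endothelial markers, Pecam1 was well above background on all arrays and Cdh5, Emcn, Kdr and Tek had no such probe, with sums between 0.042 and 0.054 over the 4 arrays. The 3 parietal epithelial markers, all with a probe well above background, summed to 8.70 and 8.41 with Venus and 7.46 and 7.13 with OASIS, with no probe past the threshold. The 4 proximal tubule markers, also all with such a probe, summed to 22.7 and 31.0 with Venus and 25.1 and 41.6 with OASIS, and 2 of 5 Lrp2 probes were higher, at 1.62 and 1.68. Of 4 leukocyte markers, Adgre1 had no probe well above background, and the list summed to 4.19 and 4.35 with Venus and 4.47 and 5.36 with OASIS. The samples came from 1 cell line, so that these sums are marker signal in that line and do not measure other cell types. Any link between the markers and the collagen differences was not tested. A change in a part of the cells and a change in all of them cannot be told apart in such samples.

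**Figure D4:**
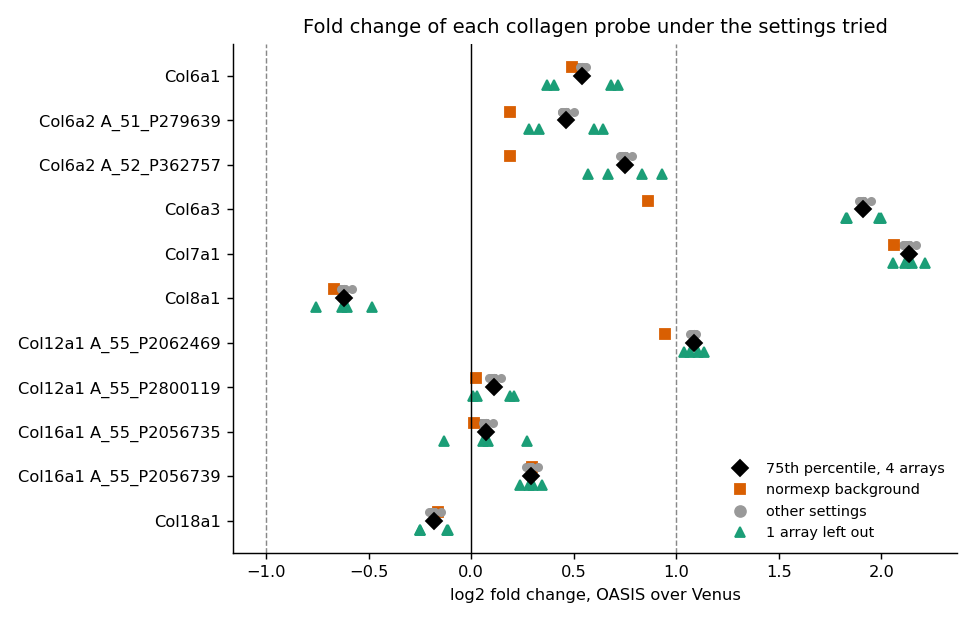
Log2 fold change, OASIS over Venus, of the 11 tested probes under the settings tried. Diamonds are the values on all 4 arrays scaled to the 75th percentile, squares those after normexp background correction, circles those of the other settings and triangles those with 1 array left out. Col7a1 stays between 2.05 and 2.21, whereas Col6a3 falls from 1.91 to 0.86 after normexp.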

How the data were processed

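The authors deposited, for each array, the scanner output of Agilent Feature Extraction 12.1.0.3. It holds for every spot an intensity with the background already taken off, the median intensity inside and around the spot, and quality marks (outlier, saturation, detection over background). They also deposited a table of scaled intensity with a detection score per spot, gene symbols, bands, Gene Ontology terms and KEGG pathways. No coordinates are given, since the RefSeq genes used here (GRCm38.p6) are of another build than the array. All 10 symbols were among the RefSeq genes. The accession of 15 of the 20 probes was a RefSeq transcript of the same gene there, and the other 5 carry Ensembl accessions.

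Control and outlier spots were left out, each array was scaled to its 75th percentile, and log2 values were averaged over the spots of a probe. A probe was taken as well above background where a share of 0.5 or more of its spots carried that mark, and it was tested if this held for both arrays of at least 1 group. The groups were compared with limma 3.58.1 (R 4.3.3, data.table version 1.17.8), with Benjamini-Hochberg adjustment over all tested probes and the threshold of the study's methods. Bounds replace folds where neither array of a group measured the probe above background, and they hold for the main scaling and background alone. The script was tested on simulated data. The number of arrays limits the precision.

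The genes and lists were chosen with earlier results of these data known. All probes of the 10 genes are named, further nonfibrillar collagens with a probe past the threshold, Creb3l1, and from the 3 partner lists the 8 genes with the largest change past the threshold and no overlap of the groups. Values of some podocyte markers are not reported here. Marker genes and genes beside the 10 were named outside this rule, after their values were seen. Alternatives were quantile and median scaling, normexp with an offset of 50 on the median spot signal, the authors' scaled values, other filters on dim probes, outlier spots kept, the methods' t-test, an intensity trend, an adjusted p under 0.05, 1 probe a gene, a replicate block and leaving out each array. A block for slide or scan was not applicable, with 1 of each. Leaving out spots with a mark on their local background was chosen after seeing the data.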

Additional observations from a re-analysis of the deposited data

How the results depend on the processing

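The 3 collagen probes past the threshold, all higher, stayed at 3 under each alternative but 2, and none was lower under any. After normexp 1 passed, Col7a1, with Col6a3 at 0.86 and the Col12a1 probe A_55_P2062469 at 0.95 and the limit on the fold at 1. With marked local backgrounds left out, 2 passed, since this Col12a1 probe could not be tested. The Col6a1 probe, which was not past the threshold, could not be tested either. Of 116 probes of the 6 related lists, 20 passed, against 9 after normexp, 8 with the methods' t-test and 12 of 71 with 1 probe a gene, where fewer probes are tested. Over all tested probes, 1861 were higher and 780 lower, against 972 and 250 after normexp and 551 and 175 with the methods' t-test. Apart from the smaller number tested with 1 probe a gene, the cause was not tested.

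Without 1 array, the collagens past the threshold stayed at 3 and the list probes lay between 17 and 25. The Col16a1 probe A_55_P2056735, at 0.07, lay between -0.13 and 0.27 and changed sign without Venus replicate 1. No other tested probe of the 10 genes changed sign. An array left alone was taken to vary as the arrays of the other group do. With the replicate number as a block, 3 collagen and 20 list probes passed, beside 1879 higher and 823 lower of all 31598 tested probes. Deviations of same-numbered arrays correlated at 0.259. With 2 such pairs and no shared source in the labels, the numbers were not taken as a pairing. Signals near background limit Col6a2, Col6a3, Col14a1 and Col15a1.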

Other observations

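The genes beside the 10 collagens in RefSeq order were read as a description of their surroundings. Of 18 such genes outside the collagens, 16 had a tested probe. Of their 26 tested probes, 2 passed the threshold by the fitted fold, 1 of them short of 2-fold by its bound. This stands beside 5.89% higher and 2.47% lower of all tested probes. Ucn2, next to Col7a1, had levels of -8.35 and -7.06 with Venus and -4.73 and -6.07 with OASIS. It was not well above background with Venus and entered through its OASIS arrays, and its bound was at least 1.65-fold higher. Uqcrc1, on the other side of Col7a1, had a difference of -0.04. Dcbld2, next to Col8a1, was lower by 1 of its 2 probes, at -1.26 (standard error 0.10, limma adjusted p = 0.00572), while the other had 0.23. Filip1l, on the other side of Col8a1, had a difference of -0.60 (limma adjusted p = 0.0290), beside -0.62 for Col8a1 itself, both inside the 2-fold limit. Pofut2, an enzyme that adds fucose to proteins, lies next to Col18a1 and had differences of 0.94 and 0.96 by its 2 probes, both just inside the limit, beside -0.18 for Col18a1.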
